A study of Mus musculus with 24 samples.

Results

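Cholesterol synthesis and the genes that control it were followed as one module of 31 members through the translatome and transcriptome of mouse pancreatic organoids. The members were taken by name from the deposited expression table: the sterol sensors and transcription factors of the SREBP system (Srebf1, Srebf2, Scap, Insig1 and Insig2), the enzymes of the mevalonate and sterol pathways, the sterol carrier Stard4, and the fatty acid enzymes that share this control. Of the 31 members, 28 had an entry of their own among the 19895 entries of the table, and all 28 were among the 11438 genes tested. The other 3 members, Srebf1, Fdft1 and Tm7sf2, were counted only together with a neighbouring gene (Rai1, Ctsb and Vps51), so their own levels cannot be told apart from those of the neighbour and they were not tested.

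N organoids were grown from ductal isolates of normal C57Bl/6J pancreas, and KP organoids from pancreatic ductal adenocarcinomas of a mouse model on the same background in which Pdx1-Cre drives tumour formation in the pancreas. Each type was treated for 1 h with the DMSO vehicle or with 10 nM CR-31, a rocaglate that clamps the RNA helicase eIF4A onto mRNA. All cultures were kept without EGF and N-acetylcysteine and received cycloheximide before harvest. Each of the 12 lysates (3 per organoid type and treatment) gave 2 libraries: mRNA bound by 3 or more ribosomes, called polysome mRNA, and total mRNA taken before the gradient. How many lines or animals stand behind the replicates was not given in the sources used here, so p-values measure only the spread between these samples.

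Cholesterol is built from acetyl-CoA through mevalonate, isoprenoid pyrophosphates, squalene and a chain of sterols. When membrane sterol is low, Scap carries the precursors of the SREBP factors from the endoplasmic reticulum to the Golgi, where they are cut and released to the nucleus. When sterol is plentiful, the Insig proteins hold Scap back, and Insig1 is itself an SREBP target. Srebf2 acts mainly on sterol genes and Srebf1 mainly on fatty acid genes.

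SREBP factors bind sterol regulatory elements and act together with NF-Y, which binds CCAAT boxes, and with Sp1, which binds GC boxes. Promoter windows from 250 bases before to 50 bases after the start were found in the RefSeq set of GRCm38.p6 for 24 of the 31 members; Fdps, Fdft1, Sqle, Stard4, Scd1, Scd2 and Fads1 were not matched. On either strand, the letters CCAAT were present in the windows of 19 of 24 members (79.2%), against 43.3% of the 8848 tested genes with a window and 41.1% of all 27025 genes with one. GGGCGG was present in 20 of 24 (83.3%, against 68.8% of tested genes), CACGTG in 5 of 24 (20.8%, against 11.6%) and the sterol element TCACNCCAC in the window of Hmgcs1 alone (4.17%, against 1.53%). A match of letters is a description and not a binding site, and windows of several starts were pooled for a gene. The stretches below, each 60 bases upstream of a start and free of annotated exons, are shown because these genes carry the contrasts described further on: Mvk, Pmvk, Mvd and Ebp separated KP from N, while Hmgcs1 and Lss had one N replicate far above the others. Capitals mark TCACNCCAC in Hmgcs1 and CCAAT, or ATTGG on the other strand, in the rest.
Hmgcs1, chr13:119690186-119690245, plus strand: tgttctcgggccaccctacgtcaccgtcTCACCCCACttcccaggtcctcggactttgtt
Mvk, chr5:114444194-114444253, plus strand: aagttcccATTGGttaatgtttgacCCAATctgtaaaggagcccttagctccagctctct
Pmvk, chr3:89454376-89454435, plus strand: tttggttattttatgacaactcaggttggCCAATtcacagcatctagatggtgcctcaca
Mvd, chr8:122443443-122443502, minus strand: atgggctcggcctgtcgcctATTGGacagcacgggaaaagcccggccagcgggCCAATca
Lss, chr10:76531515-76531574, plus strand: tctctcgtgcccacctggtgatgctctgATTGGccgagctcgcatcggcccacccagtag
Ebp, chrX:8193533-8193592, minus strand: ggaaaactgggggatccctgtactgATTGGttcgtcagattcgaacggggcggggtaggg

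Libraries held 47308461 to 267463046 counted reads. The organoids carried the defining transcripts of duct epithelium: the summed level of 8 markers, among them Krt19, Krt7 and Epcam, was 6070 to 13700 CPM (counts scaled to library size) over all 24 libraries, and none of the 8 was at 0. In polysome mRNA this sum was 10200 to 11600 CPM in N vehicle and 6370 to 11100 CPM in KP vehicle. The sums of 6 endocrine, 7 fibroblast, 4 endothelial and 4 adipocyte markers stayed at or under 1.04 CPM in every group, with Ins1, Ins2, Gcg, Col3a1, Lum and Lep at 0 throughout. Of the 8 acinar markers 6 had an entry, and their sum of 3.26 to 5.33 CPM was mostly Cela1 (3.21 to 5.30 CPM), with Cpa1 at 0 in all libraries. Immune markers summed to 4.86 to 28.1 CPM in the N libraries to 3.22 to 42.9 CPM in KP vehicle polysomes and to 2.35 to 5.03 CPM in the other KP libraries. The part of these marker levels in the results was not tested, and in bulk samples fewer cells of a type cannot be told apart from less RNA per cell.

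The module did not sit at one level in N organoids. In N replicate 1, the median member lay 0.25 above the mean of the 12 polysome libraries on the log2 scale with vehicle and 0.23 above it with CR-31, and in total mRNA these medians were 0.23 and 0.14. In N replicates 2 and 3 the median member lay between -0.79 and -0.50 in all 8 libraries. The 12 KP libraries lay between 0.27 and 0.49. The median of all tested genes stayed within -0.03 to 0.03 in every library. The place of replicate 1 differed by role: its median mevalonate enzyme lay at -0.22 to -0.12, below the 0.25 to 0.96 of the KP libraries, while its median sterol enzyme lay at 0.36 to 0.44, within the KP range of 0.01 to 0.50. With vehicle, N replicate 1 was the highest of the 3 N libraries for 23 of 28 members in polysome mRNA and for 26 of 28 in total mRNA, while it was highest for 33.6% and 39.8% of all tested genes. The same held under CR-31, with 25 and 26 of 28 members. The file names in the column headers carry a prefix, read here as the sequencing lane although the labels do not name it. By this reading N replicate 2 with vehicle shared the lane of both replicate 1 lysates and was among the low libraries. What set replicate 1 apart was not tested. The counts of members called between KP and N in the reported fits are given with and without it. It was singled out because the members were high in it. Fits without it show its weight and are not separate support for a difference.

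**Figure D1:**
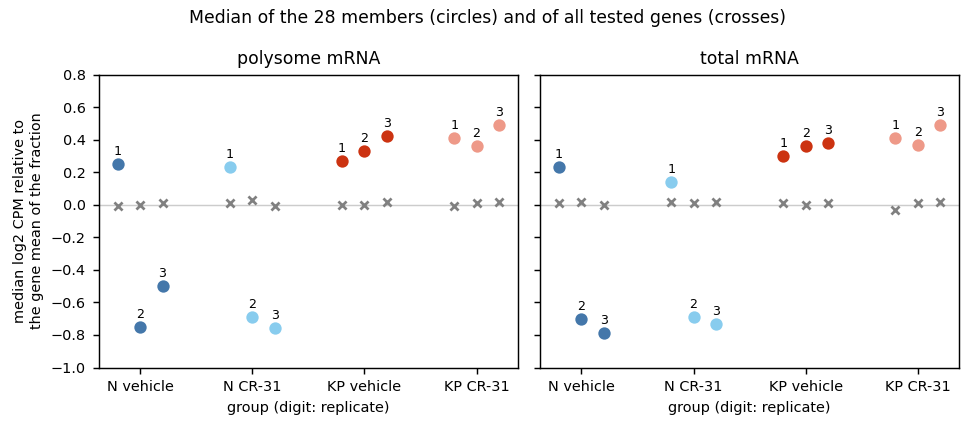
Median over the 28 tested members (circles, replicate number above) and over all 11438 tested genes (crosses) of log2 CPM relative to each gene's mean over the 12 libraries of the fraction, for polysome mRNA (left) and total mRNA (right). N replicate 1 lies between 0.14 and 0.25, the other N libraries between -0.79 and -0.50, and the KP libraries between 0.27 and 0.49.

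KP organoids were compared with N organoids under vehicle to ask how tumour origin and the module go together. In polysome mRNA, 13 of 28 members (46.4%) were higher in KP and none was lower (edgeR quasi-likelihood test, Benjamini-Hochberg adjusted p under 0.25, the study's threshold). Over all tested genes 20.9% were called higher and 22.2% lower. In total mRNA 14 members (50%) were higher and 1, Insig2, was lower, against 13.1% and 15.4% of all genes. The median log2 fold change of the 28 members was 0.63 in polysome and 0.69 in total mRNA, while the median of all tested genes was -0.03 in both. The lanes, as read from the file names, held either N or KP libraries and never both, so organoid type and lane cannot be told apart here. All 3 KP libraries lay above all 3 N libraries for 13 of 28 members in each fraction, against 18% of all genes in polysome and 15.9% in total mRNA, and no member lay wholly below, against 15.8% and 16.5%.

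**Figure D2:**
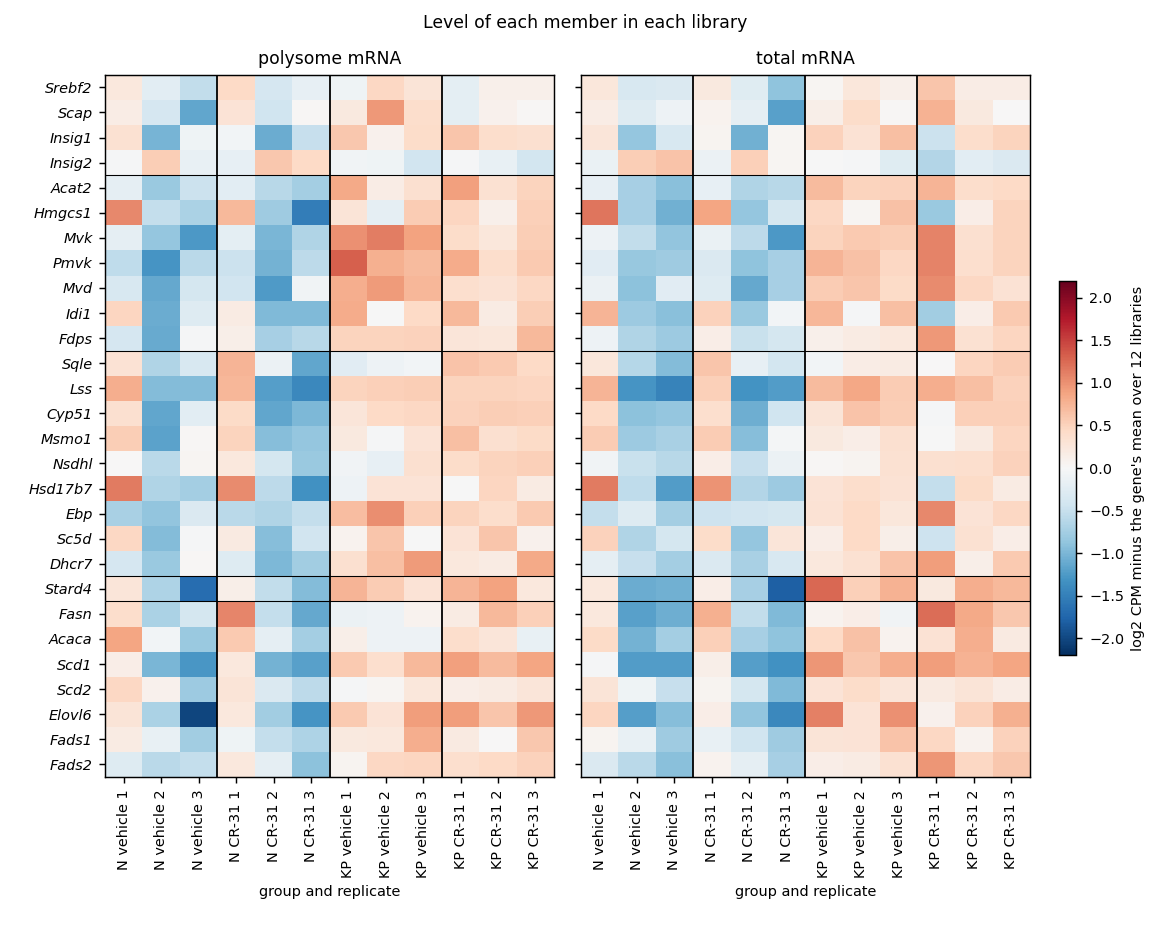
Level of the 28 tested members (rows, grouped by role from regulators to fatty acid enzymes) in the 12 polysome (left) and 12 total (right) libraries, as log2 CPM minus the gene's mean over the 12 libraries of that fraction; red is above and blue below the mean. KP columns are mostly red, the columns of N replicates 2 and 3 mostly blue, and N replicate 1 is red for Hmgcs1, Lss and Hsd17b7.

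Among the regulators, Srebf2, the factor behind the sterol genes, had 327, 236 and 192 CPM in the N vehicle polysome libraries of replicates 1 to 3 and 260, 380 and 338 CPM in KP. These values overlap, and the log2 fold change of 0.37 ± 0.27 (SE) did not pass (adjusted p = 0.366). It passed without N replicate 1 (0.56 ± 0.23, adjusted p = 0.12) and with each library's trend on transcript GC content and length removed (0.43 ± 0.20, adjusted p = 0.169). Scap, the escort of the SREBP precursors, had 126, 86.6 and 50.6 CPM in N and 130, 218 and 146 CPM in KP. All KP libraries were above N, the lowest of them by little, and Scap was 1.88-fold higher in KP polysomes (log2 fold change 0.91 ± 0.32, adjusted p = 0.0767). In total mRNA, Scap had 105, 76.5 and 86.3 CPM in N and 102, 122.7 and 94.1 CPM in KP, and its log2 fold change of 0.25 ± 0.30 did not pass (adjusted p = 0.659).

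In total mRNA the Insig genes were called in opposite directions. Insig1, the sterol-dependent brake, had 290, 133 and 189 CPM in N total mRNA and 344, 303 and 383 CPM in KP, with no overlap, and was 1.68-fold higher (log2 fold change 0.75 ± 0.36, adjusted p = 0.222). In polysome mRNA Insig1 had 263, 103 and 195 CPM in N and 316, 224 and 277 CPM in KP, which overlap, and the log2 fold change of 0.54 ± 0.33 did not pass (adjusted p = 0.283), whereas it passed without N replicate 1 (0.83 ± 0.31, adjusted p = 0.0945) and with the GC and length trends removed (0.68 ± 0.35, adjusted p = 0.211). Insig2, which also retains Scap, had 36.5, 58.7 and 62.3 CPM in N total mRNA and 39.97, 39.3 and 33.5 CPM in KP. N replicate 1 lies within the KP range, and Insig2 was the only member called lower in KP (log2 fold change -0.48 ± 0.24, adjusted p = 0.244). With the trends on GC content and transcript length removed, it did not pass (-0.33 ± 0.22, adjusted p = 0.348). In polysome mRNA it had 39.5, 58.9 and 35.9 CPM in N and 38.3, 37.6 and 30.1 CPM in KP (log2 fold change -0.34 ± 0.25, adjusted p = 0.377). The entry that holds Srebf1 together with Rai1 had 162, 174 and 201 CPM in N polysomes and 165, 209 and 251 CPM in KP, and it was not tested.

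Of the 7 tested mevalonate enzymes, 5 were higher in each fraction, against 20.9% of all genes in polysome and 13.1% in total mRNA. Pmvk, which adds the second phosphate to mevalonate, had 44.6, 26.5 and 43.2 CPM in N polysomes and 162, 112 and 106 CPM in KP. Even the lowest KP library was above the highest N library by a wide margin, and Pmvk was 3.32-fold higher (log2 fold change 1.73 ± 0.27, adjusted p = 0.00368). Mvk, the kinase before it, had 61.6, 39.1 and 29.6 CPM in N and 141, 154 and 131 CPM in KP, a 3.27-fold difference (log2 fold change 1.71 ± 0.28, adjusted p = 0.00461). Mvd, the decarboxylase after it, had 86.2, 50.7 and 84.0 CPM in N and 192, 211 and 183 CPM in KP, a 2.65-fold difference (log2 fold change 1.41 ± 0.29, adjusted p = 0.0112). These 3 consecutive enzymes were also higher in total mRNA, by 1.21 ± 0.25, 1.02 ± 0.29 and 0.92 ± 0.27 on the log2 scale for Pmvk, Mvk and Mvd.

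Acat2, the cytosolic thiolase that opens the pathway, had 203, 140 and 122 CPM in N total mRNA and 371, 325 and 327 CPM in KP. The groups were far apart, and Acat2 was 2.203-fold higher (log2 fold change 1.14 ± 0.22, adjusted p = 0.0115). Fdps, which makes farnesyl pyrophosphate, was the most abundant member per length in KP total mRNA, with 423 ± 13.4 RPKM (SD, n = 3), and was higher in KP by 0.93 ± 0.30 on the log2 scale in polysome mRNA. An annotated readthrough gene on the same strand overlaps 63.3% of its exon bases, so some of its reads may belong to that transcript. Hmgcs1 and Idi1, the remaining mevalonate members, did not pass in either fraction. Hmgcs1, the synthase that commits acetoacetyl-CoA to the pathway, had 465, 157 and 140 CPM in N polysomes and 274, 196 and 332 CPM in KP: N replicate 1 was above every KP library and the other N libraries were below every KP library. Its log2 fold change was 0.07 ± 0.55 in polysome and 0.24 ± 0.59 in total mRNA. Both genes passed in both fractions without N replicate 1, and Idi1 passed in polysome mRNA with the GC and length trends removed (0.83 ± 0.43, adjusted p = 0.213).

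Of the 9 tested squalene and sterol enzymes, 2 were higher in polysome mRNA, near the 20.9% of all genes, and 3 in total mRNA, against 13.1%. Ebp, the sterol isomerase, had 66.9, 59.9 and 88.02 CPM in N polysomes and 175, 224 and 157 CPM in KP. The groups did not overlap, and the 2.58-fold difference had the smallest adjusted p of all members in polysome mRNA (log2 fold change 1.37 ± 0.21, adjusted p = 0.00344). Dhcr7, which makes cholesterol in the last step of one branch, had 59.0, 43.5 and 77.5 CPM in N and 97.1, 121 and 145 CPM in KP (log2 fold change 1.01 ± 0.28, adjusted p = 0.0347). Nsdhl, a sterol dehydrogenase, was called in total mRNA alone, with 128, 96.5 and 88.1 CPM in N and 137, 141 and 170 CPM in KP (log2 fold change 0.52 ± 0.21, adjusted p = 0.15). In polysome mRNA its log2 fold change was 0.20 ± 0.27, and the difference between the fractions did not pass (-0.36 ± 0.25, adjusted p = 0.545).

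The other 6 tested sterol enzymes (Sqle, Lss, Cyp51, Msmo1, Hsd17b7 and Sc5d) did not pass in either fraction, with polysome log2 fold changes from -0.02 for Hsd17b7 to 0.64 for Lss. Their N libraries were widely spread. Without N replicate 1 all 6 passed in total mRNA and all but Sqle in polysome mRNA. With the GC and length trends removed Cyp51 passed in both fractions, Sc5d in polysome and Lss in total mRNA. Lss, which closes squalene epoxide into the first sterol, had 156, 37.9 and 33.5 CPM in N total mRNA and 150, 167 and 137 CPM in KP. N replicate 1 matched KP, and the other 2 N libraries were far below it. Hsd17b7, a sterol ketoreductase, had 91.97, 28.3 and 17.8 CPM in N total mRNA and 51.2, 54.4 and 51.6 CPM in KP, so that N libraries lay on both sides of a narrow KP group. These 2 genes were chosen for their spread after their values were seen. The joint entry of Tm7sf2 and Vps51 had 67.3, 80.8 and 104 CPM in N polysomes and 165, 227 and 175 CPM in KP, with no overlap. The entry of Fdft1 and Ctsb had 439, 420 and 767 CPM in N polysomes and 441, 602 and 555 CPM in KP, which overlap.

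Stard4, which moves sterol between membranes, had 55.3, 28.7 and 14.5 CPM in N polysomes and 77.5, 67.8 and 57.1 CPM in KP. The highest N library, replicate 1, came close to the lowest KP library without reaching it. Stard4 was 2.05-fold higher in polysome mRNA (log2 fold change 1.04 ± 0.42, adjusted p = 0.109) and 2.60-fold higher in total mRNA (log2 fold change 1.38 ± 0.47, adjusted p = 0.0911).

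Of the 7 fatty acid members 4 were higher in each fraction, against 20.9% of all genes in polysome and 13.1% in total mRNA. All 4 desaturate or elongate fatty acids, as does Scd2, which did not pass. Scd1, the stearoyl-CoA desaturase under SREBP control, had 159, 68.9 and 68.3 CPM in N total mRNA and 315, 243 and 281 CPM in KP. It was 2.84-fold higher with no overlap (log2 fold change 1.504 ± 0.41, adjusted p = 0.0417). Elovl6, which lengthens the products of fatty acid synthase, had 41.04, 12.7 and 15.5 CPM in N total mRNA and 63.5, 36.5 and 59.1 CPM in KP. Its groups overlapped through N replicate 1, and it was 2.30-fold higher (log2 fold change 1.20 ± 0.48, adjusted p = 0.143). Without N replicate 1 its log2 fold change was 1.91 ± 0.32 in total mRNA (adjusted p = 0.00631), and in polysome mRNA it moved from 1.14 to 1.79. The polyunsaturated fatty acid desaturase Fads2 had 84.0, 67.7 and 71.3 CPM in N polysomes and 107, 141 and 142 CPM in KP (log2 fold change 0.81 ± 0.26, adjusted p = 0.0529). Its neighbour Fads1 had 126, 98.9 and 65.3 CPM in N polysomes and 129, 130 and 193 CPM in KP (log2 fold change 0.64 ± 0.28, adjusted p = 0.138), the lowest KP library lying just above N replicate 1.

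Fasn, fatty acid synthase, Acaca, which supplies its malonyl-CoA, and Scd2 did not pass in either fraction. Their log2 fold changes were 0.11 ± 0.47, -0.18 ± 0.40 and 0.09 ± 0.30 in polysome mRNA and 0.58 ± 0.45, 0.72 ± 0.43 and 0.39 ± 0.26 in total mRNA. Without N replicate 1 all 3 passed in total mRNA, with 1.18 ± 0.24 for Fasn, 1.295 ± 0.26 for Acaca and 0.60 ± 0.22 for Scd2 (adjusted p = 0.0125, 0.0137 and 0.0955), and Fasn passed in polysome mRNA (0.44 ± 0.25, adjusted p = 0.241). With the GC and length trends removed all 3 also passed in total mRNA (adjusted p = 0.169, 0.0938 and 0.116), and Scd2 in polysome mRNA (0.499 ± 0.21, adjusted p = 0.129). The polysome value of Acaca was positive under both, at 0.32 ± 0.29 and 0.38 ± 0.27, and did not pass. Scd2 was the second most abundant member per length, with 276 ± 11.2 RPKM (SD, n = 3) in KP and 207 ± 69.9 RPKM in N total mRNA. Acaca was the least abundant, with 3.46 ± 0.65 RPKM in KP total mRNA. Scd1 and Scd2 are close copies, and reads that fitted more than one place were discarded by the authors, which can lower such genes.

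**Figure D3:**
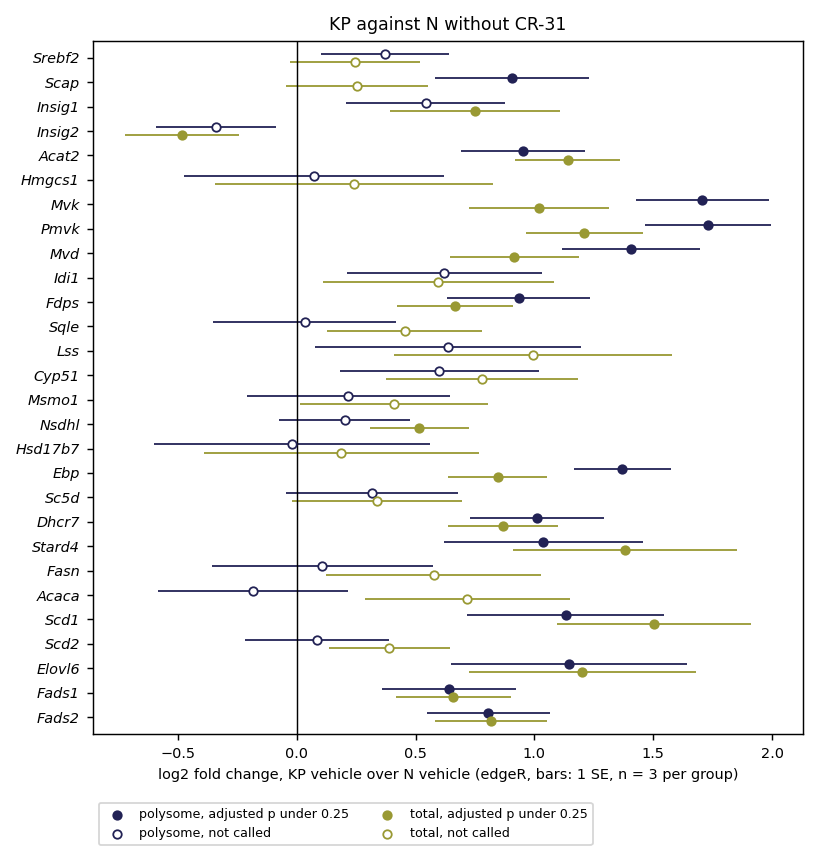
Log2 fold change of KP over N under vehicle for each tested member in polysome (dark) and total mRNA (olive), with bars of 1 SE (edgeR, 3 libraries per group); filled points passed adjusted p under 0.25. Pmvk, Mvk, Mvd and Ebp lie between 1.37 and 1.73 in polysome mRNA, and Scd1 at 1.504 in total mRNA.

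Leaving out replicate 1 of N, both lysates at once, raised the count of members called higher to 23 in polysome mRNA, where 20.7% of all genes were called higher, and to 26 in total mRNA, against 17.7%. Insig2 was then called lower in both, against 24.5% and 19.9% of all genes. The median of the members became 0.89 and 1.07. Such a rise was built in, because N replicate 1 was singled out for the members' own high levels. Without it Lss was 1.44 ± 0.18 higher in polysome and 2.08 ± 0.19 higher in total mRNA, and Hmgcs1 0.81 ± 0.30 and 1.28 ± 0.37. Leaving out N replicate 2 or 3 gave 9 members higher in total mRNA, against 8.96% and 8.25% of all genes, and leaving out the vehicle lysate of N replicate 3 alone gave 8, against 6.68%. A replicate block within each organoid type gave 22 higher and 1 lower in polysome, against 34% and 34.8% of all genes, and 25 higher and 1 lower in total mRNA, against 27.7% and 28.7%, but it takes the spread between replicate numbers, of which replicate 1 of N is a large part, out of the error. The transcripts' GC content, which differed between libraries in its relation to the counts, had a Spearman's rho with the difference of 0.25 over 11124 genes and 0.43 over the members in polysome mRNA, and of 0.05 and 0.23 in total mRNA. For transcript length, rho over all genes was -0.30 in polysome and 0.00 in total mRNA. With the trend of each library on GC content and length removed, 19 members were higher in polysome mRNA and 19 in total mRNA, against 23.6% and 22.7% of all genes, and none was lower, against 17.9% and 16.5%. In polysome mRNA, Elovl6 (1.72 ± 0.41), Stard4 (1.54 ± 0.35), Scd1 (1.54 ± 0.36) and Ebp (1.36 ± 0.18) then had larger differences than Pmvk (1.35 ± 0.29), Mvk (1.27 ± 0.35) and Mvd (1.07 ± 0.25).

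KP was also above N when both were under CR-31, in lysates that share replicate numbers with the vehicle ones. In polysome mRNA 16 of 28 members (57.1%) were higher and none lower, against 11.2% and 13.8% of all genes. In total mRNA 18 (64.3%) were higher and Insig2 was again lower, against 18.9% and 21% of all genes; with the GC and length trends removed Insig2 did not pass (-0.24 ± 0.22, adjusted p = 0.488). Of the mevalonate enzymes 6 of 7 were called in polysome mRNA, Hmgcs1 being the exception (log2 fold change 0.61 ± 0.55, adjusted p = 0.566). Pmvk was higher by 1.28 ± 0.26 (adjusted p = 0.019), Ebp by 1.08 ± 0.20 (adjusted p = 0.0135) and Scd1 by 1.34 ± 0.42 (adjusted p = 0.0767), which became 1.94 without N replicate 1. For Scap and Srebf2 the polysome log2 fold changes were -0.01 ± 0.32 and 0.00 ± 0.27 under CR-31. Both were called higher in total mRNA there, by 0.71 ± 0.30 and 0.57 ± 0.27 (adjusted p = 0.139 and 0.188). Without N replicate 1, 25 members were higher in polysome mRNA, against 14.7% of all genes, and 24 in total mRNA, against 22.5%. Without KP replicate 1 there were 5 and 12, against 3.3% and 7.22%, and without N replicate 2 there were 8 and 12, against 7.81% and 15%. Without KP replicate 3, 8 were higher in polysome mRNA, against 6.13%. Leaving out the CR-31 lysate alone gave 24 in polysome mRNA for N replicate 1, against 12.4%, and 7 to 9 for N replicate 2 or 3 and KP replicate 1 or 3, against 4.22 to 11.8%. In total mRNA it gave 11 for N replicate 3, against 14.2%, and leaving out both lysates of N replicate 3 gave 11, against 13.5%.

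Genes around the module were taken from a wider list of 57, of which 52 were tested. In polysome mRNA 12 of 52 were higher and 9 lower in KP, near the shares of all genes given above (20.9% and 22.2%), and in total mRNA 7 were higher and 8 lower, where 13.1% and 15.4% of all genes were. The list's medians of 0.07 and 0.10 lay nearer to those of all genes than the members' did. Without N replicate 1 the list had 11 higher and 12 lower in polysome mRNA and 9 higher and 11 lower in total mRNA, against 20.7% and 24.5%, and 17.7% and 19.9%, of all genes. The 20 tested genes of fatty acid supply and glycerolipid synthesis had 6 higher and 2 lower in polysome mRNA. Among them Slc25a1, which exports citrate from mitochondria for acetyl-CoA, was higher by 1.35 ± 0.30, and Acss2, which makes acetyl-CoA from acetate, by 1.19 ± 0.34 in polysome and 1.87 ± 0.29 in total mRNA (adjusted p = 0.00452). Acsl5, an acyl-CoA synthetase, was higher by 1.06 ± 0.29 in polysome and 1.10 ± 0.23 in total mRNA. In total mRNA 6 of the 20 were higher and 1 lower, Acacb among the higher (1.24 ± 0.42). Of 11 genes of sterol storage and export, 4 were lower and none higher in total mRNA, against 15.4% and 13.1% of all genes; 5 of the 11 had positive fold changes, and their median was -0.03, as over all genes. Abcg1, a sterol exporter, had a log2 fold change of -3.18 ± 0.90 (adjusted p = 0.0476), Stard5 of -1.11 ± 0.23 and Lipa, the lysosomal acid lipase, of -0.90 ± 0.26. In polysome mRNA 3 of these 11 were higher and 3 lower, against 20.9% and 22.2% of all genes, with Stard3 higher by 0.88 ± 0.19 and the log2 fold changes of Abcg1 and Lipa at -2.003 ± 1.05 and -1.31 ± 0.34.

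Of the 12 genes of SREBP processing, sterol-dependent degradation and co-factors, 1 was higher and 2 lower in polysome mRNA, against 20.9% and 22.2% of all genes. Nfyc, an NF-Y subunit, was higher by 0.65 ± 0.18, Sp1 was lower (log2 fold change -0.73 ± 0.29) and so was Erlin2 (-0.53 ± 0.20), a scaffold of the degradation machinery. Rnf139 and Rnf145, ubiquitin ligases of that machinery, and Erlin2 were lower in total mRNA, where 15.4% of all genes were called lower. Their log2 fold changes were -0.57 ± 0.25, -0.55 ± 0.23 and -0.48 ± 0.19. The isoprenoid branch had 2 higher and 2 lower of 9 in polysome mRNA: Coq2 was among the higher (0.73 ± 0.25), and Pggt1b (-0.85 ± 0.23) and Ggps1 (-0.53 ± 0.22) were the lower ones. In total mRNA only Pdss2 of this branch was called (0.58 ± 0.21), against 13.1% of all genes higher and 15.4% lower.

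CR-31 was compared with vehicle within each type to ask which mRNAs leave or enter polysomes within 1 h of eIF4A inhibition. No member passed in polysome or total mRNA of KP or N organoids, and 0% of all genes did in each of the 4 comparisons (edgeR; 1 member, Mvk, had an unadjusted p under 0.05 in KP polysomes, against 3.55% of all genes, and none in the other 3, against 0.42 to 2.6%, and DESeq2 also called 0 members). The median log2 fold change of the members was 0.08 in KP polysomes and -0.01 in N polysomes. The difference between KP and N in this effect was tested as well and passed for 0 members and 0% of genes, also without N replicate 1. Replicate numbers paired vehicle and CR-31 lysates within a type, and with the replicate as a block 1 member was higher (3.57%) and 4 lower (14.3%) in KP polysomes, against 8.3% and 11.1% of all genes, with 0 in the other comparisons of CR-31 with vehicle. In both types the vehicle and CR-31 libraries of replicates 1 and 3 shared a sequencing lane, whereas those of replicate 2 were on different lanes. With lane as a term in place of the block, 0 members and 0% of all genes passed.

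The 5 members called with the block were Scap, Mvk, Pmvk, Mvd and Sqle. Mvk had 141, 154 and 131 CPM in KP vehicle polysomes and 93.6, 84.2 and 103 CPM in KP CR-31 polysomes. Every treated library was below every untreated one (log2 fold change with the block -0.60, adjusted p = 0.192). Mvd had 192, 211 and 183 CPM before and 142, 136 and 151 CPM after CR-31, also without overlap (-0.45, adjusted p = 0.196). Scap had 130, 218 and 146 CPM with vehicle and 96.4, 120 and 115 CPM with CR-31 (-0.54, adjusted p = 0.24). Replicate 2, whose libraries were on different lanes, had the lowest log2 ratios of these 3 genes: -0.87 for Mvk (-0.59 and -0.35 in replicates 1 and 3), -0.86 for Scap (-0.43 and -0.345) and -0.63 for Mvd (-0.44 and -0.27). Pmvk had 162, 112 and 106 CPM with vehicle and 115, 85.2 and 97.0 CPM with CR-31, which overlap, and each replicate was lower with CR-31 (-0.34, adjusted p = 0.231). Its log2 ratios were -0.49, -0.39 and -0.12, the lowest in replicate 1. Sqle, the squalene epoxidase, was the one member called higher with the block, going from 138, 151 and 156 CPM to 252, 244 and 223 CPM (0.69, adjusted p = 0.196). Its log2 ratios were 0.87, 0.69 and 0.52, with the largest change in replicate 1. What part the lanes had in these ratios was not tested.

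In total mRNA of the same KP lysates, Sqle had 174, 204 and 205 CPM with vehicle and 183, 253 and 268 CPM with CR-31, and its replicate log2 ratios were 0.07, 0.31 and 0.38. In N polysomes the Sqle ratios were 0.43, 0.54 and -0.79, so that replicate 3 went against the others. In N total mRNA they were 0.36, 0.46 and 0.54, all above 0 as in KP. Fasn, chosen here after its values were seen, had replicate log2 ratios of 0.32, 0.81 and 0.44 in KP polysomes and 1.15, 0.69 and 0.68 in KP total mRNA, all above 0, and did not pass in either. In N, Fasn had 0.69, 0.16 and -0.74 in polysomes and 0.55, 0.65 and 0.11 in total mRNA. With the GC and length trends removed and the replicate as a block it passed in KP total mRNA (0.78 ± 0.11, adjusted p = 0.115), where 54 of 11124 genes were higher and 0 lower. In polysome mRNA of KP, all 3 CR-31 libraries lay above all vehicle libraries for 5 of 28 members (Sqle, Cyp51, Msmo1, Nsdhl and Fasn), against 8.94% of all genes, and below for 4 (Scap, Mvk, Mvd and Lss), against 10.5%.

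The CR-31 ratios in KP polysomes were related to the GC content of the transcripts. Scap, Mvk, Mvd and Pmvk had 59.1, 59.6, 59.3 and 57.0% GC, at or above the 83.8th percentile of tested genes, whereas the members had a median of 49.4% and all genes of 50.5%. Over 11124 genes the log2 fold change in KP polysomes had a Spearman's rho with GC content of -0.55, and over the 28 members it was -0.56; these points share libraries. With transcript length, rho over all genes was 0.42. Fasn, with 57.9% GC, lay on the other side, with ratios above 0. In N polysomes rho with GC content was 0.15 over all genes and 0.55 over the members. In KP total mRNA replicate 1 stood apart: the ratio of CR-31 to vehicle had a rho with GC content of 0.71 over all genes and 0.86 over the members, against -0.36 and 0.01 over all genes and -0.40 and 0.32 over the members in replicates 2 and 3. In that replicate Idi1, with 41.9% GC, had a log2 ratio of -1.48, while it was 0.17 and -0.10 in the others, and Mvk had 0.59 against -0.23 and -0.05. With GC and length trends removed and the replicate as a block, none of the 5 members passed in KP polysomes, nor did any other gene. The log2 fold changes were then -0.22 ± 0.15 for Mvk, -0.08 ± 0.13 for Mvd, 0.02 ± 0.11 for Pmvk, -0.33 ± 0.21 for Scap and 0.62 ± 0.22 for Sqle. Removing such a trend removes it whatever its source.

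**Figure D4:**
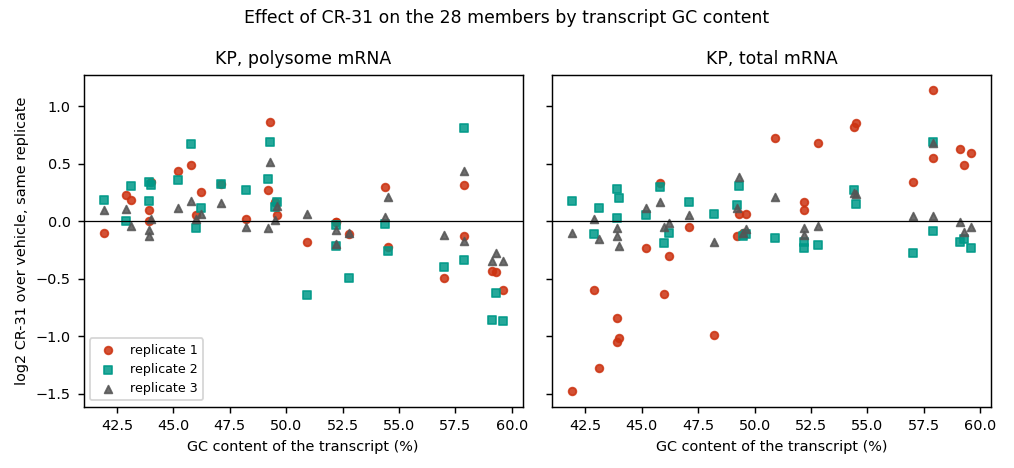
Log2 ratio of CR-31 over vehicle in each KP replicate (marker shape and colour) against the GC content of the transcript for the 28 members, in polysome mRNA (left) and total mRNA (right). Scap, Mvk, Mvd and Pmvk lie below 0 in all polysome replicates, and in total mRNA replicate 1 (rho 0.86) runs upwards with GC content, from -1.48 for Idi1 to 1.15 for Fasn.

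Polysome mRNA was compared with total mRNA of the same lysates to see how far each member was loaded onto polysomes. In N vehicle 3 of 28 members were enriched in polysomes, Elovl6 (log2 ratio 0.82 ± 0.25), Fasn (0.58 ± 0.19) and Acaca (0.53 ± 0.20), and none was depleted, against 8.83% and 6.36% of all genes. In KP vehicle 4 (14.3%) were enriched and 12 (42.9%) depleted, against 14.2% and 13.3%. The enriched members in KP were Elovl6 (0.82 ± 0.24), Mvk (0.52 ± 0.18), Pmvk (0.48 ± 0.15) and Mvd (0.44 ± 0.17). Mvk, Pmvk and Mvd have 59.6, 57.0 and 59.3% GC, while Elovl6 lies below the members' median of 49.4%. The depleted ones held 7 of the 9 tested sterol enzymes, among them Msmo1 (-0.64 ± 0.22) and Hsd17b7 (-0.51 ± 0.18), with Scd2 (-0.53 ± 0.15), Scd1 (-0.45 ± 0.13), Acat2 (-0.45 ± 0.15), Insig1 (-0.44 ± 0.21) and Fads1 (-0.28 ± 0.13). For Mvk, the ratios of the 3 KP vehicle lysates were 0.55, 0.59 and 0.41, and those of the N vehicle lysates 0.00, -0.19 and -0.29. For Msmo1 they were -0.58, -0.73 and -0.62 in KP, and -0.57, -0.89 and 0.20 in N. The median ratio of the members was 0.16 in N replicate 3, against -0.10 and -0.18 in N replicates 1 and 2. Over 11124 genes the ratio had a Spearman's rho with transcript length of 0.40, 0.63 and -0.07 in N vehicle replicates 1 to 3. Elovl6, Fasn and Acaca have the longest transcripts of the members (5951, 10050 and 9026 bases). Over the 28 members, rho with GC content was 0.43, 0.33 and 0.54 in KP vehicle replicates 1 to 3. What part length and GC content had in these ratios was not tested. Without N vehicle replicate 3 the N calls became 3 enriched and 4 depleted, against 12.4% and 9.73% of all genes, and without replicate 2 there were none, against 1.63% and 0.114%. Without both lysates of N replicate 1, 1 member was enriched in N and none depleted, against 6.44% and 4%. Without KP vehicle replicate 1 or 2, no member passed in KP, and at most 0.385% of all genes did in either direction; without replicate 3, 2 members were depleted, against 2.89%.

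**Figure D5:**
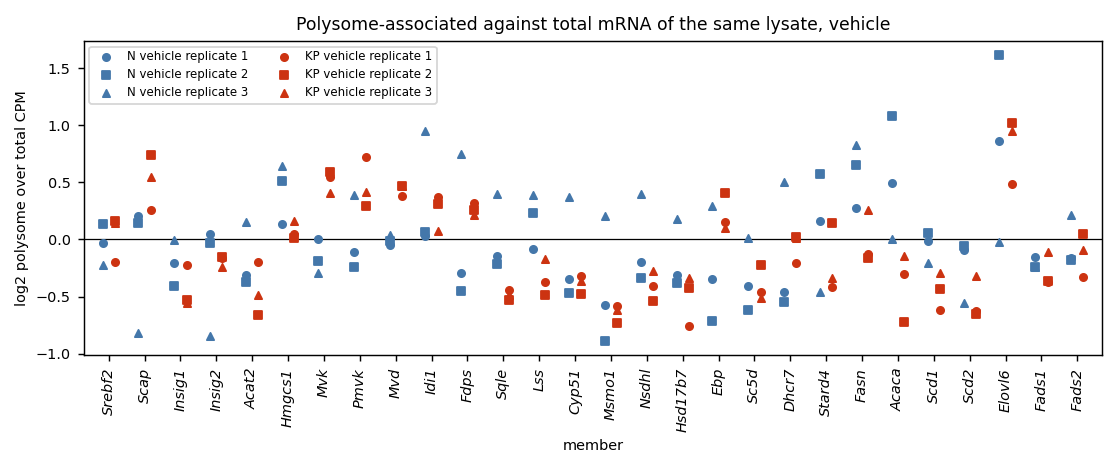
Log2 ratio of polysome over total CPM in each vehicle lysate of N (blue) and KP (red) for the 28 members; shapes mark the replicates. The 3 KP lysates lie close together for most members, as for Mvk (0.41 to 0.59), while N replicate 3 lies away from the other N lysates for many.

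A change in translational efficiency between KP and N under vehicle was tested as the interaction of fraction and organoid type, with the lysate as a block. No member passed, nor did any of the genes tested (0%); 6 members (21.4%) had an unadjusted p under 0.05, against 11.3% of all genes. On the log2 scale of KP over N, these were Mvk (0.68 ± 0.26), Pmvk (0.47 ± 0.22), Acaca (-0.92 ± 0.29), Fasn (-0.59 ± 0.27), Lss (-0.52 ± 0.20) and Scd1 (-0.40 ± 0.18), all at adjusted p of 0.433 to 0.437. What part GC content and transcript length had in these values was not tested. Without N replicate 1 no member passed. Without N replicate 3, 6 members were called more loaded in KP and 4 less, against 20% and 15.8% of all genes. With a regression of polysome on total mRNA in place of the interaction, 3 were higher and none lower, against 6.62% and 4.46% of all genes, namely Scap, Mvk and Ebp (log2 0.93, 1.23 and 1.48, adjusted p = 0.23, 0.179 and 0.156). With the replicate block added to it 20 were higher and 1 lower, against 27.9% and 26.5%. For CR-31 the interaction called 0 members in KP and 0 in N, with 0% of all genes, and 1 and 0 members had an unadjusted p under 0.05, against 5.48% and 2.87% of all genes; the regression with the replicate block called 2 higher and 2 lower in KP, against 6.02% and 7.76%.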

How the data were processed

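Polysome and total mRNA of 12 lysates were sequenced as 24 libraries. The authors aligned reads with HISAT2, dropped multi-mapped reads and counted the rest over RefSeq genes with RPKMforgenes; the deposited table holds raw counts and RPKM values (counts scaled to transcript length and library size). The sources name a human build although the genes are mouse, so coordinates here are credited to RefSeq GRCm38.p6 alone. Depth was 47308461 to 267463046 counted reads per library, and PCR copies were not separable from molecules.

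Entries with several symbols (1042 of 19895) and genes with a count of 0 in any library were left out, which left 11438. Counts were fitted with edgeR 4.0.16 in R 4.3.3 (TMM scaling, quasi-likelihood test, Benjamini-Hochberg adjustment over all tested genes, threshold 0.25), one fit per fraction with 4 groups. Efficiency and polysome against total mRNA were fitted over all libraries with the lysate as a block. CPM are TMM-scaled within a fraction, ratios of fractions over all libraries. RPKM values were used only to compare levels between genes. Errors of log2 fold changes are standard errors derived from the test.

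Replicate numbers paired vehicle with CR-31 within a type (correlation of deviations 0.455 to 0.803 in KP and 0.553 to 0.892 in N, 6 of 6 over 0.1 in each), but not N with KP (2 of 6). Alternatives were DESeq2 1.42.0, other scalings and filters, the block, leaving out lysates, and GC and length offsets added after seeing the data. The fits were run on simulated counts with 1 spread for all genes and no replicate effects. These libraries differ in both, so that run does not show how the fits perform on them. Named members were, per role, those called with the largest changes, and all regulators. Others, Hmgcs1 and Idi1 among them, fell outside this rule, and some are named as chosen after their values were seen. The members and lists were chosen with earlier results of these data known. The alleles of the tumour model are not reported here.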

Additional observations from a re-analysis of the deposited data

How the results depend on the processing

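The counts of members higher or lower in KP kept their direction under RLE and upper-quartile scaling, other filters and DESeq2, with Insig2 as the one member called lower in the reported fit; without a filter on low counts it was not called in vehicle total mRNA (adjusted p = 0.291). At adjusted p under 0.05 the counts, for polysome and then total mRNA and all higher in KP, were 6 and 5 under vehicle (all genes higher 8.02% and 3.61%) and 4 and 8 under CR-31 (2.45% and 5.12%). At that threshold polysome against total mRNA gave 0 in N, against 3.16% of all genes enriched and 0.428% depleted. It gave 0 in KP, against 0.586% and 0.533%. At adjusted p under 0.25, the replicate block gave 23 and 26 under vehicle and 26 and 24 under CR-31 (25 higher and 1 lower, against 28.7% and 29.5% of all genes, and 23 and 1, against 31.7% and 33.4%); this block takes the spread between replicate numbers out of the error, so these counts are not firmer than the reported ones. It also gave 5 for CR-31 in KP polysomes, and changed no other count of CR-31 against vehicle. Leaving out lysates gave 10 to 24 (polysome) and 8 to 27 (total) under vehicle, with 24.6 to 52.6% and 14.1 to 37.7% of all genes called, and 5 to 26 and 12 to 25 under CR-31, with 8.03 to 34.7% and 15.7 to 46.1%. For polysome against total mRNA these ranges were 0 to 12 in N and 0 to 19 in KP, with 1.75 to 35.7% and 0 to 47.8% of all genes; no filter on low counts gave 10 in KP (4 enriched and 6 depleted, against 8.01% and 6.08%). For efficiency between KP and N they were 0 to 10, with 0 to 35.8% of all genes (2 without N CR-31 replicate 3, 1 higher and 1 lower against 1.05% and 2.49%, and 7 without N vehicle replicate 3, 3 higher and 4 lower against 8.36% and 10.4%), the regression on total mRNA gave 3, and the regression with the replicate block gave 21, and 4 for CR-31 in KP. GC and length offsets with the replicate block, chosen after seeing the data, gave 1 member for CR-31 in KP total mRNA (Fasn, 0.78 ± 0.11, adjusted p = 0.115), where 54 of 11124 genes were higher and 0 lower. The log2 fold change of Hsd17b7 between KP and N vehicle polysomes turned from -0.02 to 0.25 with the replicate block and ranged from -0.34 to 0.88 over the leave-outs. In total mRNA under CR-31 it ranged from -0.30 to 0.81 for Hsd17b7 and from -0.32 to 0.65 for Hmgcs1; the values that turned and passed the threshold came without N replicate 1. Upper-quartile scaling moved the median of all genes in KP against N vehicle polysomes from -0.03 to -0.13 and that of the members from 0.63 to 0.56. The cause of these changes was not tested. With 3 lysates per group, a value that did not pass may still differ.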
